A study of Homo sapiens with 6 samples.

Results

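The genes described here are 10 NF-kB subunit and inhibitor genes: RELA, RELB, REL, NFKB1 and NFKB2, which encode the DNA-binding subunits, NFKBIA, NFKBIB and NFKBIE, which encode the cytoplasmic inhibitors, TNFAIP3, a feedback enzyme, and BCL3, a nuclear relative of the inhibitors. They were taken by symbol from the 23290 genes of the deposited expression table, and all 10 were found. The cells were U87, an established human glioblastoma line, kept in serum-containing medium. In the control group (shCTR, 3 libraries) the cells carried a scramble vector delivered by retrovirus, and in the other group (shC8, 3 libraries) they carried a retroviral hairpin against Caspase-8, the initiator protease of death receptor signalling. No stimulus such as tumour necrosis factor is named for either group, and neither the number of hairpins nor whether the infected cells were a pool or a clone is stated. The 3 libraries of a group are described as biological replicates. How far back their cultures were kept apart is not said, and the p-values reflect only the spread among the libraries. The study's title places NF-kB signalling downstream of Caspase-8 and SRC, and the comparison asks whether RNA of the pathway's own subunits and brakes differed when CASP8 was lowered.

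NF-kB is a family of dimers built from 5 subunits. In resting cells the inhibitor proteins of the IkB family hold the dimers in the cytoplasm. Receptors for cytokines activate the IkB kinases, the inhibitors are marked for destruction, and the freed dimers enter the nucleus and bind short kB sites in DNA. Among the genes they switch on are those of several inhibitors and of TNFAIP3, which closes a negative feedback loop and makes the RNA of NFKBIA and TNFAIP3 a common readout of NF-kB activity. The protein p105 from NFKB1 and the protein p100 from NFKB2 are precursors of the subunits p50 and p52, and they act as inhibitors until they are processed. Gliomas of the mesenchymal kind are known for high NF-kB activity. RNA levels do not show processing, phosphorylation or nuclear entry of these proteins.

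In GRCh38 (GENCODE 29) the subunit genes lie apart: RELA at chr11:65653596-65663094 (minus strand), RELB at chr19:45001430-45038198, REL at chr2:60881521-60931610, NFKB1 at chr4:102501329-102617302 and NFKB2 at chr10:102394110-102402529 (plus strand). The inhibitor genes are NFKBIA at chr14:35401511-35404749 and NFKBIE at chr6:44258166-44265788 (minus strand) and NFKBIB at chr19:38899700-38908893 (plus strand). TNFAIP3 lies at chr6:137867188-137883312 and BCL3 at chr19:44747705-44760044, both on the plus strand. FPKM covered each whole gene, so exons and isoforms were not told apart.

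Before the levels, the DNA upstream of the genes is shown, since NF-kB feedback acts through kB sites. The promoter table made from RefSeq (build GRCh38.p14, windows of 300 bases, from 250 before to 50 after a transcript start) held 8 of the 10 genes in 13 windows, with up to 3 starts for a gene. RELB and NFKBIE were not matched. The kB consensus of 10 bases was searched on both strands, with overlapping matches counted once. It was found for 7 of the 8 genes, in 8 of 13 windows (61.5%), whereas 5.91% of all 35116 windows and 7.09% of all 27305 genes with a window held it. RELA, the subunit gene whose product carries most of the activating function, was the 1 gene of the 8 with no match in either of its 2 windows. A match is a description of the letters and no evidence of binding. The 250 bases upstream of NFKBIA and the stretch around both matches of TNFAIP3 are printed because these genes had the largest differences between the groups among the 10. Sequences run 5′ to 3′ on the strand of the gene, and capitals mark the kB matches, which the edges of the TNFAIP3 stretches cut in part.
NFKBIA, chr14:35404750-35404999, minus strand: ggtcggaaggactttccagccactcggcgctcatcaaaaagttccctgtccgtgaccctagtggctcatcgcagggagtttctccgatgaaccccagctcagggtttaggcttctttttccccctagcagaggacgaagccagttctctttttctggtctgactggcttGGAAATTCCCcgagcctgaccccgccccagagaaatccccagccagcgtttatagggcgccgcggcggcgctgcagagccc
TNFAIP3, first match, chr6:137867183-137867210, plus strand: cgtgactttGGAAAGTCCCgtGGAAATC
TNFAIP3, second match, chr6:137867195-137867222, plus strand: AAGTCCCgtGGAAATCCCCgggcctaca

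The match upstream of NFKBIA began 81 bases before the transcript start, and the pair upstream of TNFAIP3 began 67 and 55 bases before it, all 3 on the strand opposite to the gene. Distances here and below are from the RefSeq start of the window. The genes as GENCODE draws them begin further upstream for TNFAIP3, REL, NFKB2, NFKBIB and BCL3 and include the matches printed, while those of NFKBIA and NFKB1 lie outside the gene. Matches of the other members are shown with 9 bases on either side, 1 for each gene, to compare the core letters, and the match nearest to a start was taken for NFKB2, which had 4 in 2 windows.
REL, chr2:60881518-60881546, plus strand: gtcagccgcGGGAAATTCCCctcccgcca
NFKB1, chr4:102501301-102501328, plus strand: gacgtcagtGGGAATTTCCagccaggaa
NFKB2, chr10:102395675-102395702, plus strand: ggtattttcGGGACTTTCCtaagctgct
NFKBIB, chr19:38899932-38899960, plus strand: ggcgtggtgGGGAATTTCCCgcagggcgg
BCL3, chr19:44748701-44748728, plus strand: cggctgcagGGGAAGTCCCggcgcccgg

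In REL and NFKBIB the capitals cover 11 bases, because overlapping matches lie on both strands. REL, NFKB1, NFKB2 and NFKBIB had their match 47, 49, 21 and 28 bases before the start, and in BCL3 it began at base 3 of the transcript. Thus matches occurred both in genes whose levels varied most between libraries (NFKBIA and TNFAIP3) and in REL, which varied least of the 10 on the log2 scale, as the values below show.

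The data are 1 FPKM value per gene and library, that is, fragments scaled by transcript length and by the mapped fragments of the library, and absolute depth is unknown. In bulk RNA, fewer expressing cells and less RNA per cell cannot be told apart. CASP8 stood at 15.1, 14.9 and 13.4 FPKM across control replicates 1 to 3 and 4.39, 4.46 and 4.44 FPKM across shC8 replicates 1 to 3, which leaves 30.6% of the control mean. The exact permutation p (two-sided) was 0.1, the smallest possible with groups of 3. Of 10 glial and glioma marker genes, VIM and CD44 were among those with the highest mean FPKM, while GFAP, S100B, SOX2 and OLIG2 were under a mean of 1 FPKM, so these classical glial markers were near 0 in cells labelled as glioblastoma. In that list NES rose by 0.60 and CD44 fell by 0.45 on the log2 scale. Of 13 markers of other cell types, 12 were under a mean of 1 FPKM and AIF1 and CD3E were among those listed at 0 in every library. CD68, EPCAM and KRT8 had the highest means of these markers. The summed level of that list was 151 to 159 FPKM in shCTR and 137 to 154 FPKM in shC8, nearly all of it CD68, and its part in the results was not tested. The column headers carry numbers of unstated meaning, lower for shCTR 1, shCTR 3 and shC8 1 and higher for the remaining 3. Over all genes 59.1% of the calls were rises, against 49.4% after quantile normalization and 46.2% after median-of-ratios scaling.

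Levels spanned a wide range, from NFKBIA, whose product IkB-alpha is the main cytoplasmic inhibitor, down to NFKBIE, which encodes the minor inhibitor IkB-epsilon. NFKBIA averaged 109.6 FPKM over the 6 libraries, above 93.3% of the 11598 genes tested, which averaged 1 FPKM or more. Next came RELA with 33.5 FPKM and NFKB1 with 14.8 FPKM, and the ranges of these 3 genes over the libraries did not overlap each other or those of the genes below. NFKBIB (9.60 FPKM), which encodes the inhibitor IkB-beta, and NFKB2 (9.48 FPKM) had overlapping ranges, with NFKBIB the higher in 4 of 6 libraries. RELB (5.33 FPKM), BCL3 (4.82 FPKM) and TNFAIP3 (4.48 FPKM) also overlapped in range from one to the next. REL (1.85 FPKM), whose product c-Rel is best known from lymphoid cells, and NFKBIE (1.79 FPKM) were lowest, and REL was the higher of the pair in 3 of 6 libraries.

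**Figure D1:**
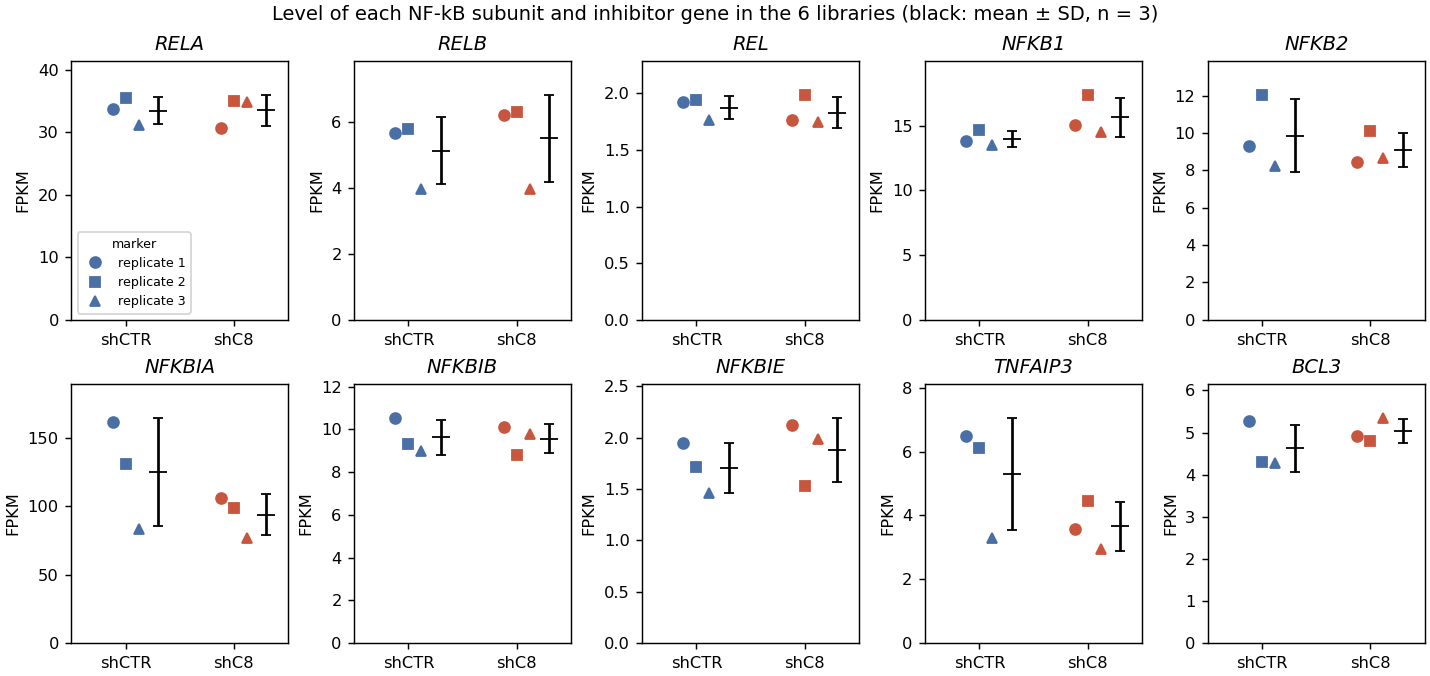
FPKM (vertical axes, from 0) of each of the 10 genes in the 3 shCTR and 3 shC8 libraries, with the replicate number as marker shape and the mean ± SD (n = 3) in black. The groups overlapped for all 10 genes, and NFKBIA ranged from 77.1 FPKM in shC8 3 to 162 FPKM in shCTR 1.

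None of the 10 genes passed the test between the groups in either direction. The test was limma's moderated test on log2(FPKM + 1), with p-values adjusted by Benjamini-Hochberg over the 11598 genes tested, all 10 members among them, and a call at an adjusted p under 0.05. Over all genes tested, 7.14% were called higher and 4.94% lower in shC8. At an unadjusted p under 0.05, 0 of the 10 members were counted as well, against 29.7% of all genes. With the replicate block 3 members had such a p (NFKB1, NFKBIA and TNFAIP3), against 41.1% of all genes, and without shCTR 3 there were 2 (NFKBIA and TNFAIP3), against 26.6%. The groups overlapped for each of the 10, whereas they did not overlap for 34.8% of all genes tested. The median change of the members was -0.003 on the log2 scale, beside a median of 0.04 over all genes. Changes were above 0 for 5 members and below 0 for 5, and they were below 0 for 42.1% of all genes. The median over all genes was 0.004 after quantile normalization and 0.003 after median-of-ratios scaling. A change kept the same sign in all 3 pairs of same-numbered libraries for 4 members (RELB, NFKB1, NFKBIA and TNFAIP3), and this was so for 60.9% of all genes. Deviations of same-numbered libraries from their group means correlated across genes (see the processing), so the fit with the replicate number as a block is given wherever it alters a call.

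The transactivating subunits carry the domains that switch genes on. RELA, which encodes p65, was at 33.7, 35.4 and 31.2 FPKM across control replicates 1 to 3 and 30.6, 35.0 and 34.9 FPKM across shC8 replicates 1 to 3. The highest and the lowest of these values belonged to different groups, and the group averages were 33.5 ± 2.14 and 33.5 ± 2.48 FPKM (SD, n = 3 each). The change was 0.001 on the log2 scale (SE 0.0788, 95% interval from -0.18 to 0.19, limma adjusted p = 0.994). Within the 3 pairs RELA differed by -0.14, -0.02 and 0.16.

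RELB encodes the partner of p52 in the noncanonical branch of the pathway. It stood at 5.67, 5.79 and 3.97 FPKM across control replicates 1 to 3 and 6.24, 6.33 and 3.99 FPKM across shC8 replicates 1 to 3. Here the libraries divided by replicate number: the third library of either group was near 4 FPKM and the other 4 were above 5.6 FPKM. The change was 0.08 (SE 0.182, 95% interval from -0.35 to 0.50, limma adjusted p = 0.816). Blocking on the replicate number lowered the standard error to 0.0639 and the adjusted p was 0.402, so the pairing took up most of the spread of RELB and left no call.

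REL was at 1.92, 1.94 and 1.76 FPKM across control replicates 1 to 3 and 1.76, 1.99 and 1.74 FPKM across shC8 replicates 1 to 3. Its change was -0.02 (SE 0.0877, limma adjusted p = 0.894). The pseudocount of 1 weighs on so low a gene, and with a pseudocount of 0.1 the change was -0.03 (limma adjusted p = 0.897). REL had the smallest spread within groups of the 10 genes on the log2 scale, above that of 13.5% of all genes tested, and that scale compresses low values.

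The differences of the precursor genes had opposite signs, and neither passed. NFKB1 was at 13.8, 14.7 and 13.5 FPKM across control replicates 1 to 3 and 15.0, 17.4 and 14.5 FPKM across shC8 replicates 1 to 3. Only shC8 3 lay within the range of the controls, just below shCTR 2, and NFKB1 was higher in shC8 in each pair, by 0.12, 0.23 and 0.10. Group averages were 14.0 ± 0.617 and 15.6 ± 1.52 FPKM (SD, n = 3 each), the change was 0.15 (SE 0.0815, 95% interval from -0.04 to 0.34), and the limma adjusted p was 0.266, or 0.0958 with the replicate block.

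NFKB2 was at 9.30, 12.05 and 8.24 FPKM across control replicates 1 to 3 and 8.44, 10.1 and 8.69 FPKM across shC8 replicates 1 to 3. The second library was the highest of its group in both groups. The change of NFKB2 was -0.10 (SE 0.134, 95% interval from -0.41 to 0.22, limma adjusted p = 0.674). Within the pairs it was -0.13, -0.23 and 0.07, and without shCTR 2 the change was 0.04 on the log2 scale.

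Added up per library, the 5 subunit genes gave 64.4, 69.9 and 58.6 FPKM across control replicates 1 to 3 and 62.1, 70.8 and 63.8 FPKM across shC8 replicates 1 to 3. The subunit sums overlapped, with means of 64.3 ± 5.63 and 65.6 ± 4.63 FPKM (SD, n = 3 each). RELA made up 52.1% ± 1.27 of the sum in shCTR and 51.1% ± 3.04 in shC8, and REL made up 2.92% ± 0.125 and 2.79% ± 0.0506. NFKB1 accounted for 21.4%, 21.0% and 23.0% in shCTR 1, 2 and 3 and for 24.2%, 24.5% and 22.7% in shC8 1, 2 and 3, so shC8 3 again lay within the control range. Sums and shares were described without a test.

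**Figure D2:**
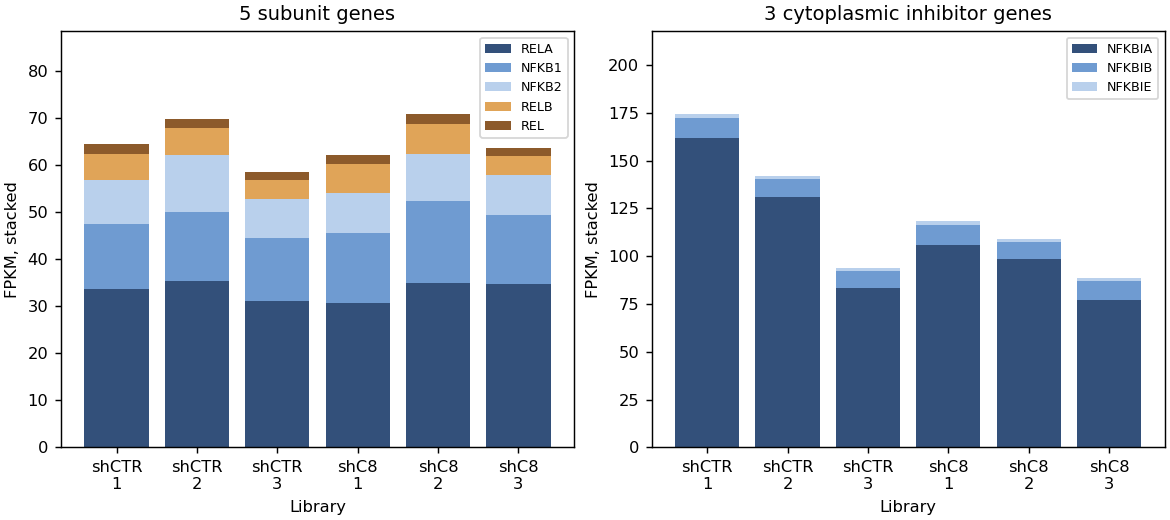
Stacked FPKM per library of the 5 subunit genes (left) and of the 3 cytoplasmic inhibitor genes (right), with both vertical axes from 0. The subunit sums lay between 58.6 and 70.8 FPKM, and the inhibitor sums, almost all NFKBIA, between 88.8 FPKM in shC8 3 and 174 FPKM in shCTR 1.

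Of the cytoplasmic inhibitors, NFKBIA had the largest difference. It was at 162, 131 and 83.2 FPKM across control replicates 1 to 3 and 106, 98.5 and 77.1 FPKM across shC8 replicates 1 to 3. The first and second control libraries were above every shC8 library, while shCTR 3 was below shC8 1 and shC8 2. Group averages were 125 ± 39.5 and 93.9 ± 15.0 FPKM (SD, n = 3 each), so shC8 held 74.9% of the control mean. The change was -0.37 (SE 0.234, 95% interval from -0.92 to 0.17, limma adjusted p = 0.330), which did not pass. Within the pairs NFKBIA was lower in shC8 by -0.60, -0.41 and -0.11. With the replicate number as a block the standard error was 0.0943 and the limma adjusted p was 0.0359, so NFKBIA was the 1 member called lower in that fit, in which 10.6% of all genes were called lower and 16.1% higher. When the header number range entered the model the limma adjusted p was 0.400. The change was -0.13 among libraries of low header number and -0.58 among those of high number. In the low range shC8 1 alone stood for shC8, and in the high range shCTR 2 alone stood for shCTR. Without shCTR 1 the change was -0.16 (limma adjusted p = 0.692), without shC8 3 it was -0.24 (adjusted p = 0.621), and without shCTR 3 it was -0.64 (adjusted p = 0.0610).

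NFKBIB was at 10.5, 9.34 and 9.01 FPKM across control replicates 1 to 3 and 10.1, 8.83 and 9.77 FPKM across shC8 replicates 1 to 3. All 6 values lay within 8.83 to 10.5 FPKM, and the change was -0.01 (SE 0.0833, 95% interval from -0.20 to 0.19, limma adjusted p = 0.964). NFKBIB overlaps SIRT2 on the other strand (GENCODE 29), and the use of strand in the authors' counting is not stated, so reads of the pair may not have been told apart.

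NFKBIE was at 1.95, 1.71 and 1.46 FPKM across control replicates 1 to 3 and 2.13, 1.53 and 1.98 FPKM across shC8 replicates 1 to 3. The change of NFKBIE was 0.09 (SE 0.119, limma adjusted p = 0.666), and 0.13 with a pseudocount of 0.1. Summed, the 3 inhibitor genes gave 174, 142 and 93.7 FPKM across control replicates 1 to 3 and 118, 109 and 88.8 FPKM across shC8 replicates 1 to 3. The NFKBIA share of that sum averaged 91.3% ± 2.16 for the controls and 89.0% ± 1.95 for shC8 (SD, n = 3 libraries). The inhibitor sum was 2.70, 2.03 and 1.60 times the subunit sum in shCTR 1, 2 and 3 and 1.90, 1.54 and 1.39 times in shC8 1, 2 and 3. The ratio was lower in shC8 in each pair, and the groups overlapped because shCTR 3 lay among the shC8 libraries.

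TNFAIP3 encodes A20, an enzyme that edits ubiquitin chains on signalling proteins and thereby shuts off NF-kB activation. It stood at 6.50, 6.11 and 3.30 FPKM across control replicates 1 to 3 and 3.57, 4.46 and 2.94 FPKM across shC8 replicates 1 to 3. As with NFKBIA, the first and second control libraries were the highest and the third one lay among the shC8 libraries. Group averages were 5.30 ± 1.75 and 3.66 ± 0.768 FPKM (SD, n = 3 each), 69.0% of the control mean in shC8. The change was -0.41 (SE 0.223, 95% interval from -0.93 to 0.11, limma adjusted p = 0.266), and -0.48 with a pseudocount of 0.1. Within the pairs TNFAIP3 was lower in shC8 by -0.71, -0.38 and -0.13. The limma adjusted p was 0.0522 with the replicate block, just short of the threshold, and 0.0467 without shCTR 3, where the change was -0.66. Leaving out shCTR 1 gave -0.26 (adjusted p = 0.553).

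BCL3 encodes a nuclear IkB protein that binds p50 and p52 dimers and can activate genes with them. It was at 5.27, 4.31 and 4.28 FPKM across control replicates 1 to 3 and 4.92, 4.81 and 5.35 FPKM across shC8 replicates 1 to 3. The change of BCL3 was 0.10 (SE 0.0928, 95% interval from -0.11 to 0.32, limma adjusted p = 0.493). Its pairs gave -0.08, 0.13 and 0.26.

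**Figure D3:**
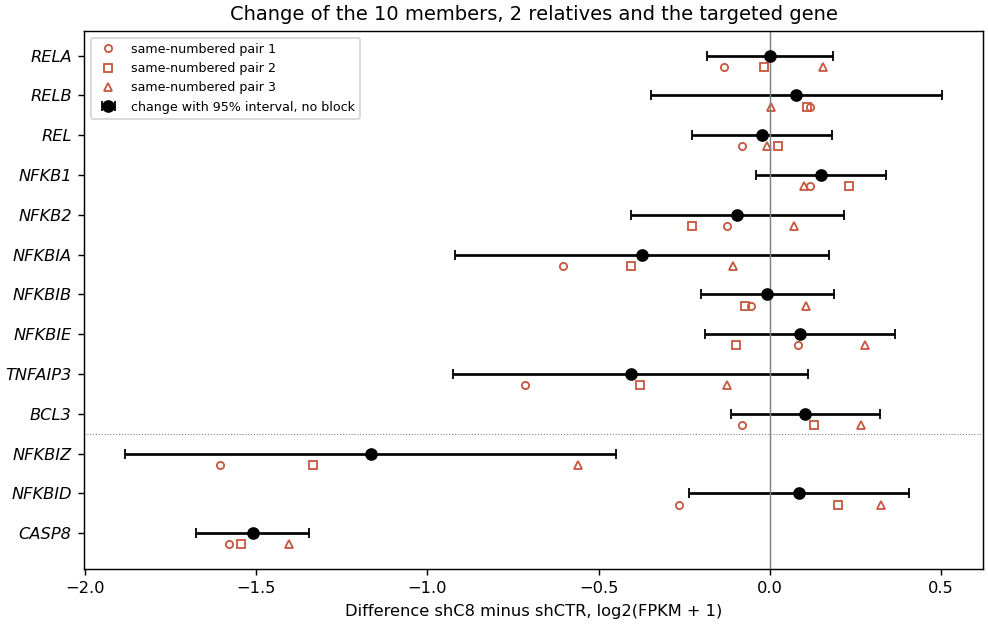
Difference between shC8 and shCTR on the log2(FPKM + 1) scale (horizontal axis) for the 10 members and, under the dotted line, NFKBIZ, NFKBID and CASP8. Black points with bars are limma estimates with 95% intervals from the fit without a block, and open red markers are the 3 same-numbered pairs. The intervals of all 10 members include 0, and those of NFKBIA and TNFAIP3 reach down to -0.92 and -0.93.

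The members differed in how much they varied within a group. On the log2 scale the spread within groups of NFKBIA, TNFAIP3 and RELB exceeded that of 97.1%, 96.5% and 94.3% of all genes tested, and for NFKB2 the figure was 86.4%. RELA, NFKB1 and NFKBIB lay near the middle, at 42.3%, 43.9% and 43.6%. The third library was the lowest of the shCTR group for all 10 genes, a count for which no share over all genes is given here. It was the lowest of both groups for 5 of them (RELB, REL, NFKB1, NFKBIA and TNFAIP3), while this held for 14.0% of all genes tested. This pattern was noticed after the values were seen. For NFKBIA the third library stood at 56.9% of the mean of the other two in shCTR and at 75.4% in shC8, for TNFAIP3 at 52.2% and 73.1%, and for RELB at 69.4% and 63.5%. For RELA the same shares were 90.2% and 106%.

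**Figure D4:**
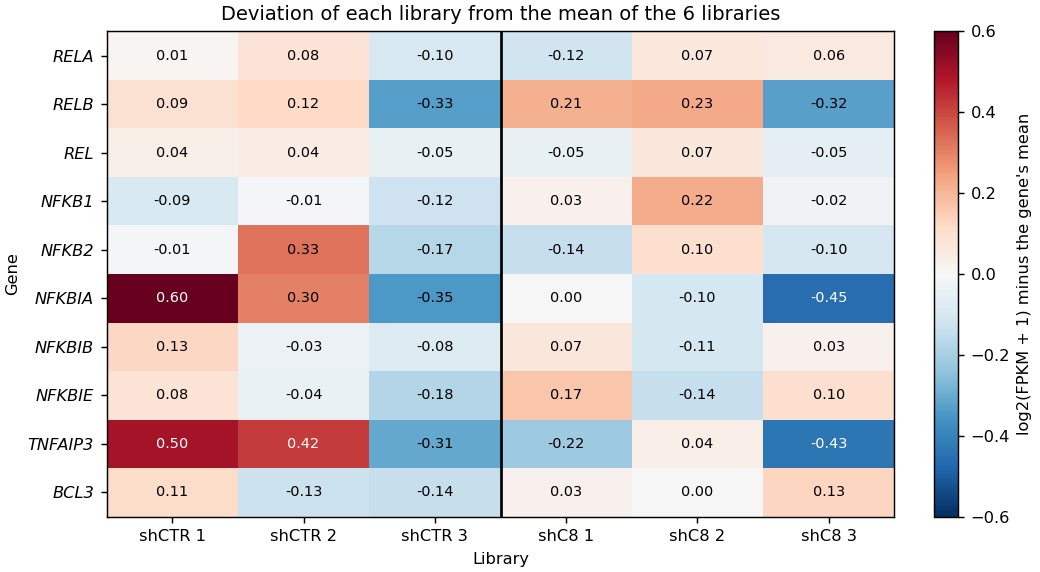
Deviation of each library from the mean of the 6 libraries on the log2(FPKM + 1) scale, as colour and number, for the 10 genes (rows), with a line between the shCTR and shC8 libraries (columns). NFKBIA and TNFAIP3 are high in shCTR 1 and 2 and low in shCTR 3 and shC8 3, and RELB is low in shCTR 3 and shC8 3.

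The intervals show which differences the 3 libraries per group could have hidden. For RELA, REL, NFKB1, NFKBIB and BCL3 the 95% intervals stayed within -0.23 and 0.34 on the log2 scale. For NFKB2, RELB and NFKBIE their ends lay between -0.41 and 0.50. A p that misses the threshold does not show that the levels were the same, and for NFKBIA and TNFAIP3 falls of up to 0.92 and 0.93 on the log2 scale lie inside the intervals.

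The nearest relatives outside the set are NFKBIZ and NFKBID, which encode further nuclear IkB proteins. NFKBIZ, an inducible gene whose product IkB-zeta activates a subset of inflammatory genes, was at 37.9, 35.2 and 15.4 FPKM across control replicates 1 to 3 and 11.8, 13.3 and 10.1 FPKM across shC8 replicates 1 to 3. All shC8 libraries were below all controls, and the order of the control libraries was that of NFKBIA and TNFAIP3. NFKBIZ fell to 39.9% of the control mean, a change of -1.17 (limma, SE 0.307, adjusted p = 0.0496, and 0.00989 with the replicate block). Its call was kept in 1 of the 6 fits without 1 library, with limma adjusted p up to 0.149. The call was lost once the header number range entered the model (limma adjusted p = 0.0577). Calls over all genes fell as well, from 1401 in the main fit to 477 to 1346 without 1 library and 1244 with the range. NFKBID, at 1.04 ± 0.101 and 1.18 ± 0.345 FPKM (SD, n = 3 each), changed by 0.09 (limma adjusted p = 0.717).

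Among 20 other inhibitor and feedback genes, all tested, 1 rose (N4BP1, an RNA-cleaving regulator, by 0.32) and 2 fell, NFKBIZ and TNIP3, a partner of A20 (by 0.93), beside 3 and 6 with the replicate block. The median change of that list was 0.05. With 1 library left out, N4BP1 was still called in 2 of 6 fits and TNIP3 in 1 of 6. Of 44 tested upstream activators 7 rose and 3 fell (median 0.06), with 9 and 3 under the block. The largest changes were in receptor and adaptor genes. They were -0.70 for TNFRSF1B, a tumour necrosis factor receptor, 0.55 for CD40, 0.52 for the interleukin-1 co-receptor IL1RAP and 0.52 for TRADD. Of 14 tested genes for secreted NF-kB targets 7 fell and 1 rose (median -1.74), with 10 and 1 under the block. IL1B fell by 3.75 on the log2 scale, and the changes were -3.42 for CSF3, -2.91 for IL8, now named CXCL8, and -2.18 for CXCL2. The 1 rise was CCL2, by 1.10. The summed FPKM of the secreted list ranged from 636 to 1749 in shCTR and from 155 to 249 in shC8, against 160 to 250 and 161 to 189 for the 10 members. Of 15 tested cell-bound targets 1 rose (TAP1, by 0.45) and 2 fell (PTGS2 by 1.88 and CD44 by 0.45), with 4 and 4 under the block and a median of 0.01. Of 18 nuclear partners 0 rose and 3 fell (the acetylase gene KAT2B by 0.44, the deacetylase gene HDAC2 by 0.33 and the importin gene KPNA4 by 0.31), with 1 and 5 under the block and a median of 0.03. With 1 library left out, TRADD, IL1B, TAP1, CD44 and KAT2B were called in all 6 fits, CD40 and CXCL2 in 5, CSF3 and IL8 in 4, CCL2 and HDAC2 in 3, TNFRSF1B, IL1RAP and PTGS2 in 2 and KPNA4 in 1. Over all genes tested, 7.14% were called higher and 4.94% lower, and with the replicate block 16.1% and 10.6%. The fits without 1 library called 477 to 1346 of all genes, against 1401 in the main fit. These lists were not compared with the members, or with all genes, by a test.

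**Figure D5:**
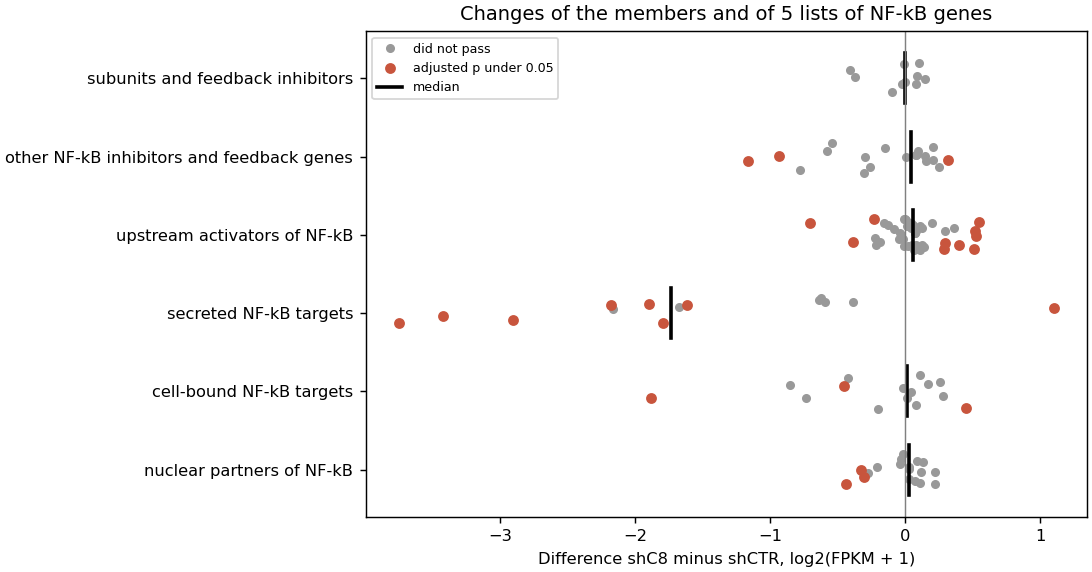
Differences between shC8 and shCTR on the log2(FPKM + 1) scale for the tested genes of the 10-member set and of 5 lists of other NF-kB genes, 1 point per gene, with called genes in red and medians as black bars. The members lie between -0.41 and 0.15, while the secreted targets reach down to -3.75.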

How the data were processed

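The authors deposited 1 table of FPKM per gene symbol for the 6 libraries. Libraries were stranded and ribosome-depleted, per the labels' protocols. The submitters' processing notes list TopHat, Cufflinks, Cuffdiff and hg38, and give neither version nor role. The annotation, the use of strand and any scaling are not given in the sources used here. Since the deposited FPKM hold no counts, count models were not run. Column totals were 489055 to 516634 FPKM.

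Genes averaging 1 FPKM or more were tested on log2(FPKM + 1) with limma 3.58.1 (R 4.3.3), mean trend, two-sided. This scale understates changes of low genes. The main fit, without a block, was tested on simulated data in which same-numbered libraries shared no effect. That test does not cover the fit with the block. Same-numbered libraries deviated together (correlations across genes 0.397, 0.266 and 0.291), so the numbers were taken as pairs from the data; the fit without a block stayed the main one. Members and lists were chosen with earlier results of these data known. Named genes are all members, CASP8, NFKBIZ, NFKBID, up to 4 called genes of largest change per list, and for marker lists the 3 highest and those at 0, some of which are not reported here; any other gene was picked with its values in view. Of 8 RNA quality and mitochondrial genes 5 were in the table (ACTB, GAPDH and PPIA highest) and 0 were called. The mitochondrial genes MT-ND1, MT-CO1 and MT-CYB were absent from it, and RNA quality itself was not measured. IL8 and FAM105B were matched through RefSeq synonyms. Positions are from GENCODE 29 and RefSeq (GRCh38, which is hg38).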

Additional observations from a re-analysis of the deposited data

How the results depend on the processing

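Alternatives were a pseudocount of 0.1, no filter, a minimum mean of 5 FPKM (6 members left), quantile normalization, median-of-ratios scaling, no mean trend, the replicate block, the header number range as a term and each library left out. Members called higher were 0 in each. Members called lower were 1 with the replicate block (NFKBIA, -0.373, adjusted p = 0.0359), 0 to 1 without 1 library (TNFAIP3, called without shCTR 3) and 0 in the others. The block changed no other member's call. RELA changed sign with quantile normalization (-0.0133), median-of-ratios scaling (-0.0364) and the range term (-0.0499), and NFKBIB with the range term (0.0200). Without 1 library the changes ran from -0.0470 to 0.0625 for RELA, -0.0681 to 0.259 for RELB, -0.204 to 0.0446 for NFKB2, -0.0497 to 0.0528 for NFKBIB, -0.639 to -0.164 for NFKBIA and -0.662 to -0.260 for TNFAIP3.

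For the other inhibitors, the replicate block gave 3 rises and 6 falls. Falls were 0 without the filter, 1 at 5 FPKM, 1 without the trend and 0 with the range term, and without 1 library rises were 0 to 1 and falls 0 to 5. Their median was 0.00801 at 5 FPKM, 0.00651 with quantile normalization, 0.00760 with median-of-ratios scaling, 1.48e-05 with the range term and -0.0272 to 0.0369 without 1 library. Upstream activators had 2 to 5 rises and 0 to 2 falls without 1 library, with medians of 0.0282 (quantile), 0.0261 (median-of-ratios) and 0.0369 to 0.0636 (without 1 library). Secreted targets had 3 falls without the filter and, without 1 library, 0 to 1 rises and 2 to 10 falls, with medians of -2.21 at a pseudocount of 0.1 and -2.19 to -1.41. Cell-bound targets had 4 rises and 4 falls with the replicate block and 1 fall without the filter; without 1 library they had 1 to 2 falls and medians of -0.0785 to 0.0874. Nuclear partners had 1 rise and 5 falls with the replicate block, 1 to 3 falls without 1 library and a median of -0.0259 with quantile normalization. Glial and glioma markers had 0 rises without the filter, 2 with the replicate block and 0 to 1 without 1 library, and a median of -0.00832 with quantile normalization. The cause was not tested. Depth is unknown, and 3 libraries a group limit precision.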
